A study of Homo sapiens with 28 samples.

Results

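The windows examined here surround 5 genes for partners of JUN: FOS, FOSB, FOSL1, FOSL2 and ATF3. Every peak of 28 CUT&RUN peak lists that overlapped 1 of 5 windows of genome build hg19 was taken, whatever its value. The windows were chr14:75690000-75800000 for FOS, chr19:45920000-46030000 for FOSB, chr11:65610000-65720000 for FOSL1, chr2:28500000-28700000 for FOSL2 and chr1:212680000-212850000 for ATF3. They held 830 of the 1123812 deposited peaks, with 138 in the FOS, 195 in the FOSB, 156 in the FOSL1, 158 in the FOSL2 and 183 in the ATF3 window. By antibody these were 58 FOXF1 peaks, 256 peaks of phosphorylated c-JUN (p-c-JUN) and 516 peaks of acetylated histone H3 lysine 27 (H3K27ac).

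FOS family proteins cannot pair with themselves and bind DNA by pairing with a JUN protein through a leucine zipper, which makes the dimer called AP-1. FOS and FOSB are immediate early genes that growth signals such as the Ras pathway switch on within minutes. FOSL1 and FOSL2, which encode FRA-1 and FRA-2, are AP-1 targets themselves and last longer, and ATF3 is a stress-induced relative that also pairs with JUN. AP-1 has been described as an organiser of enhancers in fibroblasts that become senescent through oncogenic Ras.

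In CUT&RUN an antibody tethers a nuclease that cuts out the DNA beside the bound protein. The cells were IMR-90 ER:Ras, a fetal human lung fibroblast line with a Ras oncoprotein fused to an estrogen receptor domain and switched on by 4-hydroxytamoxifen (4OHT). FOXF1 is a forkhead transcription factor of lung mesenchyme, p-c-JUN is the active form of the AP-1 subunit c-JUN, and H3K27ac marks active enhancers and promoters. The groups, of 2 libraries each unless stated, were Sen-siFOXF1/2 (senescent cells with small interfering RNAs against FOXF1 and FOXF2), Sen-cJUN/JUND-KD (knockdown of JUN proteins), Sen-sip300/CBP (knockdown of the acetyltransferases p300 and CBP), Sen (senescent cells with control siRNA) and Pro (proliferating cells). FOXF1 was profiled in Sen-siFOXF1/2, Sen-cJUN/JUND-KD, Sen and Pro, and p-c-JUN in Sen-siFOXF1/2, Sen and Pro. H3K27ac was profiled in all of them, with 4 Sen libraries and 2 further Sen libraries that serve as the control of Sen-sip300/CBP. All 28 libraries are tagged with 4OHT at 100 nM for 6 days and as senescent fibroblasts, the Pro libraries included, so that Pro rests on the titles. The JUN knockdown is titled cJUN/JUND-KD, and JUNB is added in its treatment tag. Both libraries of each JUN knockdown group and Sen libraries 3 and 4 for H3K27ac came in a second deposit.

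The promoters of FOS, FOSB and FOSL2 are shown because these stretches hold letters that AP-1 and its relatives are known to read. They run from 250 bases before to 50 bases after the annotated start of each gene in RefSeq, on build GRCh38.p14, all on the plus strand. That build is not the one of the peak lists, so no peak was placed on them. Capitals mark matches to TGANTCA, the AP-1 site, or to TGACG, one arm of the site read by ATF and CREB proteins, on either strand.
FOS, chr14:75278578-75278877: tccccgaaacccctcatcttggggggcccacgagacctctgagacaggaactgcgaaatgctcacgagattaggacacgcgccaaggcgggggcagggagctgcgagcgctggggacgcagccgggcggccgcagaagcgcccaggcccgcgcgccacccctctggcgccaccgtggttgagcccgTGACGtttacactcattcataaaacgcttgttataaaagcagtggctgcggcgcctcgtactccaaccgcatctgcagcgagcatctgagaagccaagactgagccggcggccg
FOSB, chr19:45467746-45468045: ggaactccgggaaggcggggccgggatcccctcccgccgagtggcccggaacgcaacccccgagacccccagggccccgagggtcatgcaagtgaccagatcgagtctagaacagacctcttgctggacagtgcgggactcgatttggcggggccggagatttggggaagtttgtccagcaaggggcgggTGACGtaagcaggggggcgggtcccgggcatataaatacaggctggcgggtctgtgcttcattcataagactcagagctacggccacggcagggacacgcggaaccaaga
FOSL2, chr2:28392608-28392907: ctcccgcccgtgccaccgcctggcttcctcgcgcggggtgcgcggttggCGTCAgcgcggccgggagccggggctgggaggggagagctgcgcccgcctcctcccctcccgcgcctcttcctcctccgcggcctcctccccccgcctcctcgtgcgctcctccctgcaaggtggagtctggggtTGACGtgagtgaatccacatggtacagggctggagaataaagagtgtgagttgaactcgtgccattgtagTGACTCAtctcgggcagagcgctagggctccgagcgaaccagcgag

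The FOS promoter had TGACG at −64 from the gene start, and the FOSB promoter had it at −60. FOSL2 had TGACTCA at +5, a full AP-1 site, and TGACG at −66 and, on the minus strand, at −201. Among 35116 RefSeq promoters of this length, 7.71% held TGANTCA and 24.6% held TGACG. This shorter motif was added to the search after the promoters had been read. Neither of the 2 ATF3 promoters searched, chr1:212565157-212565456 and chr1:212614768-212615067, held TGANTCA or TGACG. Any other start of ATF3 was not searched, so this does not describe all of its promoters. FOSL1 had no promoter in the source used, so it was not searched. None of the 3 promoters, and neither of the 2 ATF3 promoters in the table, held TGACGTCA (1.85% of promoters), the forkhead core TGTTTA (12.3%) or the CArG box of serum response factor (1.29%). These are letter matches within 300 bases, and the serum response element of FOS is known to lie further upstream.

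The libraries differed widely in the length of their lists, and the number of mapped reads behind them is unknown. FOXF1 lists held 186 and 133 peaks in Sen-siFOXF1/2, 378 and 883 in Sen-cJUN/JUND-KD, 13603 and 40537 in Sen, and 3441 and 11061 in Pro. The p-c-JUN lists ranged from 24808 peaks in Pro replicate 1 to 93443 in Sen replicate 2, and the H3K27ac lists from 1549 in Sen-sip300/CBP replicate 2 to 89329 in Pro replicate 2. Below, peaks of the 4 libraries of a comparison that touched by at least 1 bp were joined into a region. A region counted as gained when both libraries of the first-named condition and neither of the other held a peak, and as lost in the reverse case. The share of such regions over the whole genome is given beside each count of these main calls. Under other settings the share over the genome changed too, and it is given beside some of the counts. Fold enrichments are the authors' values at the peak summit over local background and describe a peak within its own list. With 2 libraries against 2, the exact two-sided permutation test cannot give a p below 0.33, and since nothing says that replicates were separate cultures, p measures only the spread between these libraries.

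FOXF1 peaks were found in all 5 windows in Sen cells, and 5 regions, 1 in each window, were gained relative to Pro cells. Sen replicates 1 and 2 held 2 and 8 FOXF1 peaks in the FOS window, against 1 and 2 in Pro. In the FOSB window they held 2 and 6 in Sen, against 0 and 2 in Pro. The FOSL1 window had 1 and 6 in Sen, against 0 and 2 in Pro. For FOSL2 the numbers were 3 and 5 in Sen, against 0 and 1 in Pro, and for ATF3 they were 4 and 7 in Sen, against 1 and 3 in Pro. The 2 conditions did not overlap in the FOSL2 and ATF3 windows, met at 2 peaks in FOS and FOSB, and overlapped in FOSL1. Over the 5 windows, 12 and 32 peaks in Sen against 2 and 10 in Pro gave a log2 difference of 1.85 ± 1.15 (SE, n = 2 and 2; p = 0.33 by exact two-sided permutation, its lowest value here). With the lists limited to equal length the difference turned to −0.95, so its direction depended on that setting.

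**Figure D1:**
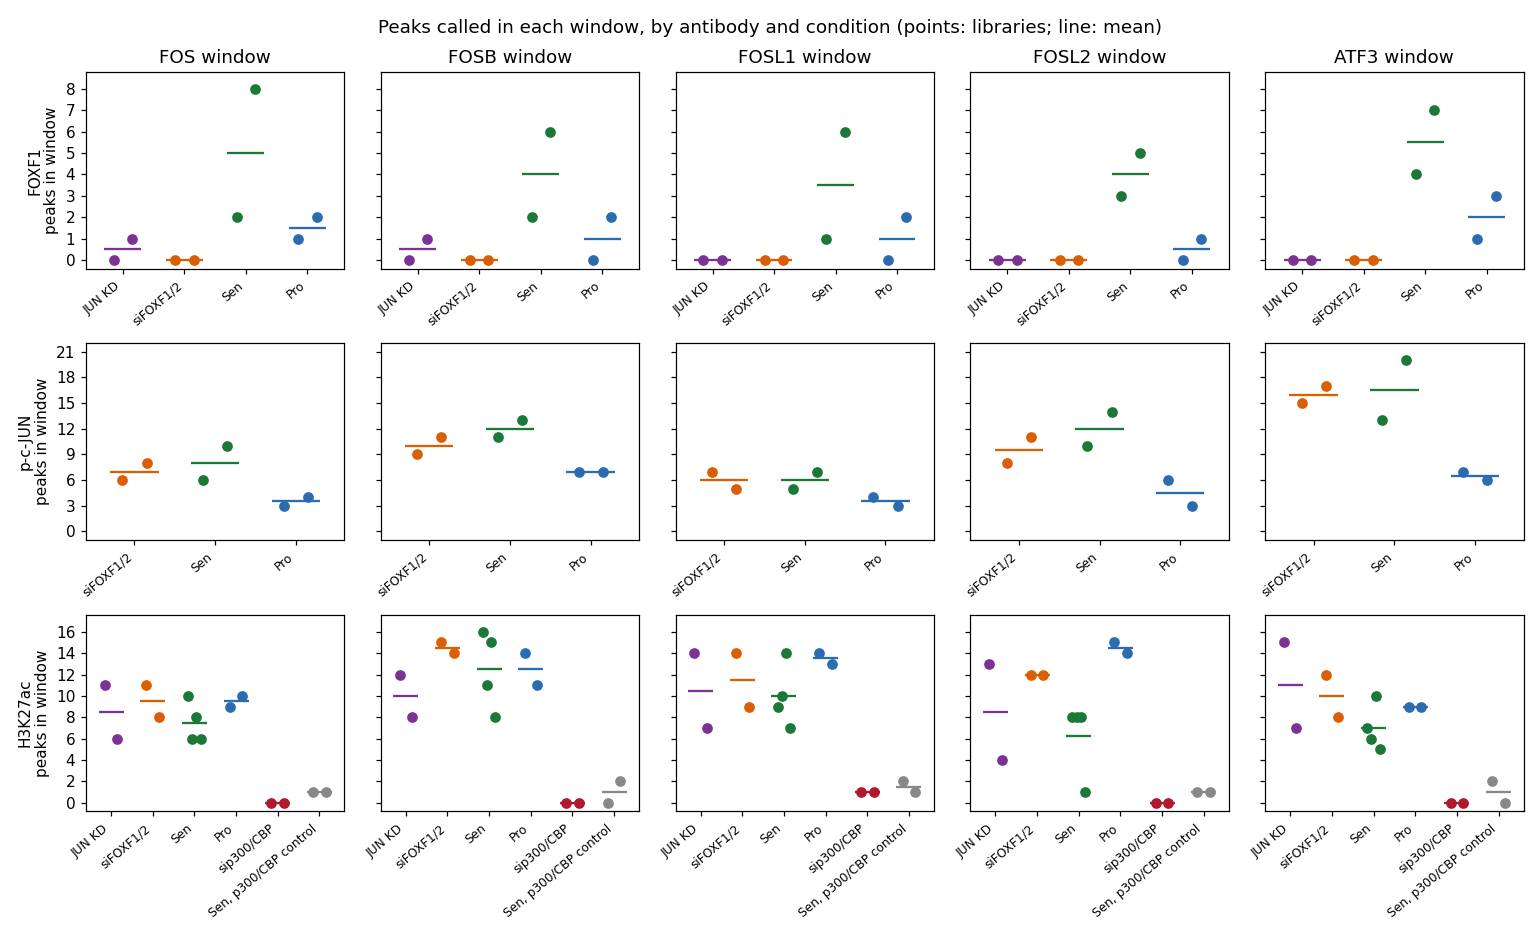
Peaks called in each window (columns) by antibody (top to bottom) and condition (x axis); the y axis is the number of peaks, points are libraries and lines are means. JUN KD stands for Sen-cJUN/JUND-KD. FOXF1 peaks were absent from all windows in Sen-siFOXF1/2, p-c-JUN peaks were more in Sen than in Pro in every window, and the sip300/CBP libraries and their control held at most 2 peaks a window.

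The 5 gained FOXF1 regions were 14.7% of the 34 regions in the windows, beside 13.1% gained over the genome, and 0 were lost, beside 0.350%. In the FOS window the gained region was chr14:75725872-75726367, with fold enrichments of 5.74 and 4.34 in Sen replicates 1 and 2. In the FOSB window it was chr19:45959243-45959732 (5.53 and 6.54), in the FOSL1 window chr11:65670430-65671079 (4.81 and 6.57), in the FOSL2 window chr2:28514701-28515044 (4.44 and 4.42) and in the ATF3 window chr1:212734926-212735181 (4.67 and 8.39). The share of gained regions in the windows was thus near the share over the genome. With peaks of −log10 q of 5 or more there were 0 gained regions, beside 13.6% over the genome. With lists of equal length 0 were gained and 2 lost, beside 11.2% and 8.22%. The calls thus did not hold in either setting. When regions had to share 50% of the shorter peak, the FOSL2 gain was not called. Without Sen replicate 1, the shorter Sen list, 22 regions were gained, beside 73.0% over the genome. Without Pro replicate 2 there were 8, beside 21.0%.

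Both Sen libraries shared 10 FOXF1 regions in the windows, called elements here: 2 at FOS, 1 at FOSB, 1 at FOSL1, 2 at FOSL2 and 4 at ATF3. The strongest was the second FOSL2 element, chr2:28523412-28524179, with fold 9.79 and 10.35 in Sen, against 8.32 in Pro replicate 2 and no peak in Pro replicate 1. It stood in the top 4.67% and 2.70% of the Sen lists. The other FOS element, chr14:75733893-75734202, and the ATF3 element chr1:212769411-212770050 held FOXF1 peaks in both Sen and both Pro libraries. At the FOS element the folds were 5.21 and 7.57 in Sen and 5.95 and 7.20 in Pro, and at the ATF3 element 5.63 and 8.26 in Sen and 7.33 and 8.05 in Pro. The remaining ATF3 elements, chr1:212740356-212740902 (4.77 and 7.28 in Sen) and chr1:212840955-212841637 (5.05 and 7.20 in Sen), had a peak in Pro replicate 2 only, at 6.88 and 5.75.

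After siFOXF1/2 no FOXF1 peak was left in any of the 5 windows. Sen-siFOXF1/2 libraries held 0 and 0 peaks, against 12 and 32 in Sen (log2 difference −4.37 ± 0.672, SE, n = 2 and 2; p = 0.33 by exact two-sided permutation). All 10 elements were lost, which is 29.4% of 34 regions, beside 26.2% lost over the genome. The gained regions numbered 0, beside 0.0607%. The loss extended over the genome, where these lists held 186 and 133 peaks in all. Peaks of the Sen-siFOXF1/2 FOXF1 lists reach down to 76 bp in width and carry another name prefix than the other lists, so a difference in processing and the knockdown cannot be told apart. With peaks of −log10 q of 5 or more the lost regions numbered 1, beside 26.4% over the genome, and the log2 difference was −2.70. With lists of equal length, 133 peaks each, 0 regions were lost and the difference was 0.00 (p = 1.00 by exact two-sided permutation). Without Sen replicate 1 the lost regions numbered 32, beside 99.6% over the genome.

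Sen-cJUN/JUND-KD left FOXF1 peaks at 2 places. Replicate 1 held 0 and replicate 2 held 2 peaks in the windows, against 12 and 32 in Sen (log2 difference −3.58 ± 1.04, SE, n = 2 and 2; p = 0.33 by exact two-sided permutation). The peak in the FOS window, at fold 4.35, touched the gained FOS element at its edge, and that in the FOSB window, at fold 4.34, lay at chr19:45971004-45971549. The other 9 elements were lost, 27.3% of 33 regions beside 25.4% over the genome, and 0 were gained, beside 0.148%. These libraries belong to the second deposit and the FOXF1 Sen libraries to the first, so deposit and knockdown cannot be told apart. With peaks of −log10 q of 5 or more 1 region was lost, with a log2 difference of −2.70, and with lists of equal length 0 were lost, with a difference of 0.00 (p = 1.00 by exact two-sided permutation). Leaving out Sen replicate 1 gave 31 lost regions, beside 97.4% over the genome.

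**Figure D2:**
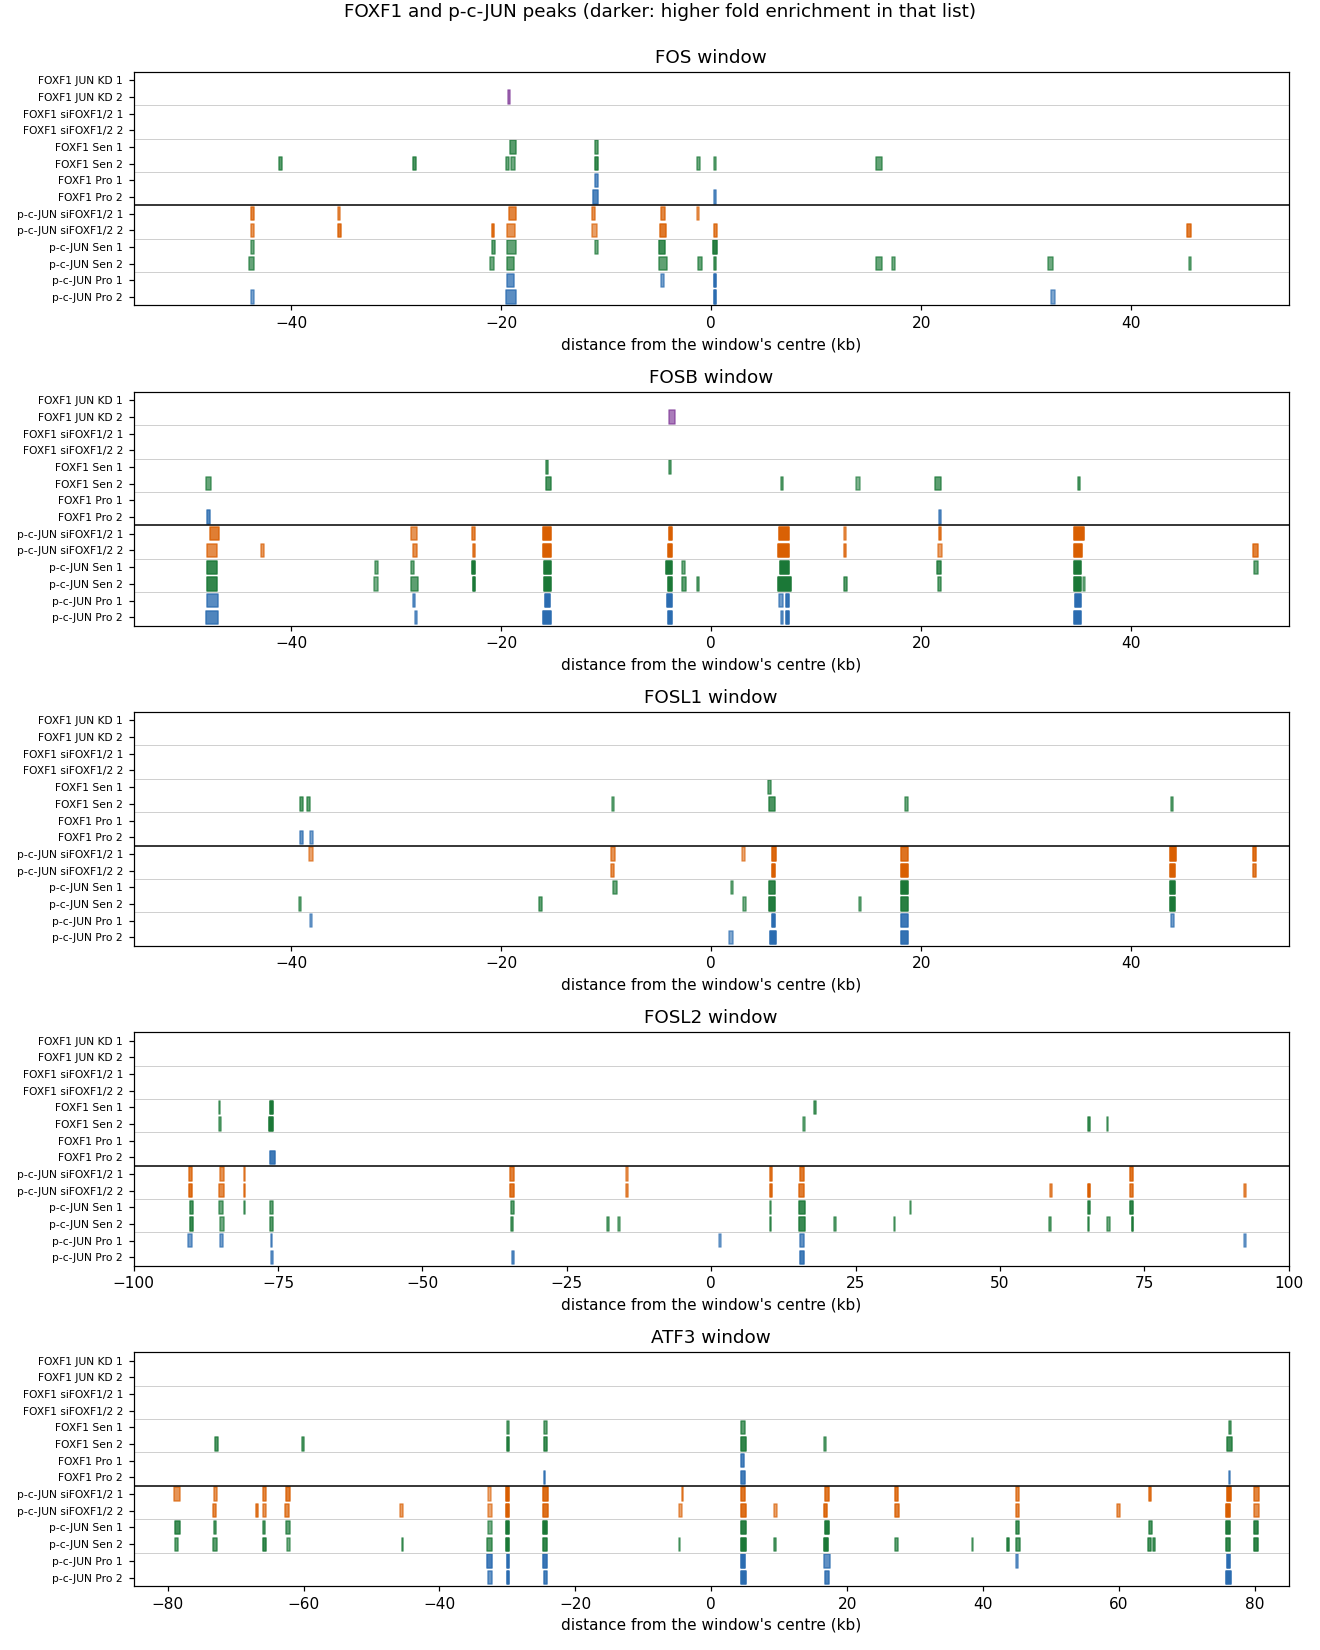
FOXF1 (upper rows) and p-c-JUN (lower rows) peaks of each library along the 5 windows, drawn to scale with a thin outline; the x axis is the distance from the window's centre in kb and darker blocks have a higher fold enrichment in their own list. FOXF1 blocks in Sen stand mostly above p-c-JUN blocks, the siFOXF1/2 FOXF1 rows are empty, and p-c-JUN rows stay filled after siFOXF1/2.

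The FOXF1 elements lay on p-c-JUN. Of the 10 elements, 9 overlapped p-c-JUN peaks of both Sen libraries, beside 73.7% of all 11287 FOXF1 regions shared by the Sen libraries. The exception was chr14:75733893-75734202 at FOS, with a p-c-JUN peak in Sen replicate 1 (4.06) but not in replicate 2. In Pro cells, 8 of the 10 already held p-c-JUN in both libraries, beside 41.8% over the series. Of the 5 elements gained in Sen, p-c-JUN was present in both Pro libraries at those of FOS (5.99 and 6.28), FOSB (18.53 and 21.35), FOSL1 (10.20 and 10.39) and ATF3 (14.36 and 16.16), and in Pro replicate 1 alone at FOSL2 (4.46). H3K27ac covered 7 of the 10 in both Sen libraries (65.9% over the series) and all 10 in both Pro libraries (73.1%). Seen from the other side, 9 of 39 p-c-JUN regions shared by the Sen libraries in the windows held FOXF1 in both Sen libraries, 23.1% beside 14.1% over the series. With 10 elements, these shares are descriptions and were not tested.

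**Figure D3:**
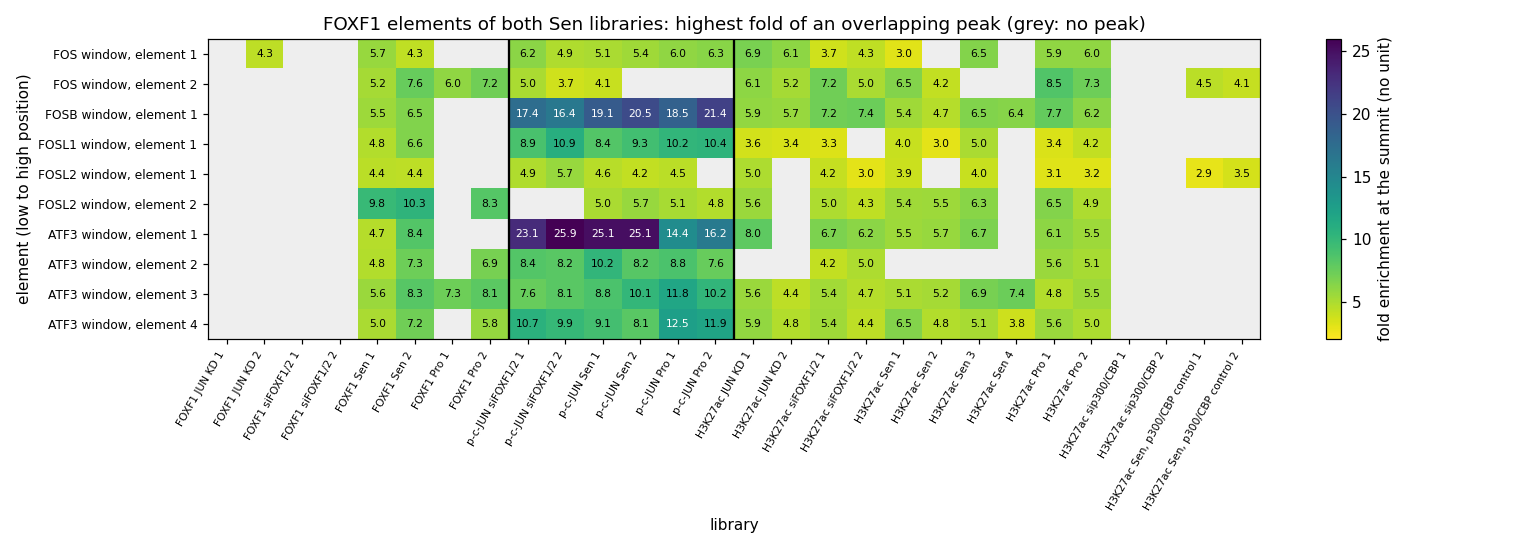
The 10 FOXF1 elements shared by both Sen libraries (rows, by window and position) in every library (columns, grouped by antibody); colour and number give the highest fold enrichment of an overlapping peak and grey marks no peak. JUN KD stands for Sen-cJUN/JUND-KD. The first ATF3 element has the highest p-c-JUN folds in siFOXF1/2 and Sen and the FOSB element those in Pro, and the second FOSL2 element is blank for p-c-JUN after siFOXF1/2.

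p-c-JUN peaks were more numerous in Sen than in Pro cells in every window. In the FOS window Sen replicates 1 and 2 held 6 and 10 peaks, against 3 and 4 in Pro. FOSB had 11 and 13 in Sen, against 7 and 7 in Pro, and FOSL1 had 5 and 7 in Sen, against 4 and 3 in Pro. FOSL2 had 10 and 14 in Sen, against 6 and 3 in Pro, and ATF3 had 13 and 20 in Sen, against 7 and 6 in Pro. The conditions did not overlap in any window. Over the windows, 45 and 64 peaks in Sen against 27 and 23 in Pro gave a log2 difference of 1.08 ± 0.273 (SE, n = 2 and 2; p = 0.33 by exact two-sided permutation). At equal list length it was −0.24, and per 10000 peaks of their lists the windows held 6.41 and 6.85 peaks in Sen, against 10.9 and 7.16 in Pro.

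Of 73 p-c-JUN regions, 14 were gained in Sen, 19.2% beside 28.0% over the genome, and 0 were lost, beside 0.307%. The gains were 1 of 11 regions at FOS, 4 of 14 at FOSB, 0 of 10 at FOSL1, 3 of 18 at FOSL2 and 6 of 20 at ATF3. At FOSL1, chr11:65708680-65709262, joined over all p-c-JUN lists, had 10.36 and 14.97 in Sen. It was not called because Pro replicate 1 held a peak there (4.69). The strongest gained region by fold was at FOSB, chr19:45952255-45952519, with 11.78 and 11.46 in Sen and 6.02 and 6.29 after siFOXF1/2. At FOSL2, chr2:28672569-28673063 had 8.32 and 10.97 in Sen, chr2:28665265-28665495 had 7.35 and 5.78, and chr2:28610112-28610413 had 4.54 and 5.71. Among the 6 at ATF3, the first 3 by rank were chr1:212844818-212845460 (8.14 and 8.33), chr1:212829310-212829832 (6.38 and 6.74) and chr1:212699077-212699537 (5.65 and 7.63). The others at FOSB were chr19:45972242-45972576, chr19:45996512-45996911 and chr19:45942930-45943300, with folds from 3.73 to 7.07. The one at FOS, chr14:75723973-75724376, had 5.34 and 4.42. Without Sen replicate 1 the gained regions numbered 38, beside 62.8% over the genome, and with lists of equal length 3, beside 10.2%. Without Pro replicate 2 the lost regions numbered 3, beside 1.12%. With peaks of −log10 q of 5 or more, 13 regions were gained, beside 31.3%. These were 1 at FOS, 2 at FOSB, 1 at FOSL1, 4 at FOSL2 and 5 at ATF3.

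Over all 6 p-c-JUN lists the windows held 79 regions, of which 16 were present in every list, 20.3% beside 14.3% over the series. FOSB and ATF3 had 6 each, FOSL1 had 2, and FOS and FOSL2 had 1 each. At these regions the number of fragments over the summit could be worked back from the deposited fold and p-value. The ATF3 region chr1:212734773-212735217 stood apart in height. It had 193 and 194 fragments over its summit in Sen-siFOXF1/2, 223 and 208 in Sen, and 76 and 81 in Pro. Counting intervals were 167 to 222 and 168 to 223 in Sen-siFOXF1/2, 195 to 254 and 181 to 238 in Sen, and 59.9 to 95.1 and 64.3 to 101 in Pro (exact Poisson, 95%, counting error only). Sen and Pro did not overlap (p = 0.33 by exact two-sided permutation), and the counting intervals of Sen-siFOXF1/2 and Sen overlapped.

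The ratio of Sen to Pro at this ATF3 region was 2.75, and 9.09% of 18532 regions held by all 6 lists over the genome had as high a ratio or a higher one. The 0.1% quantile of the background in each list, a stand-in for depth, differed between Sen and Pro by a ratio of means of 0.902. By library it was 0.980 and 0.609 fragments in Sen-siFOXF1/2 and 0.726 and 0.587 in Sen. The fragment numbers and ratios given here are not corrected for it. The ATF3 region ranked 24 and 23 among the peaks of the Sen lists, 86 and 21 in Sen-siFOXF1/2 and 503 and 435 in Pro. FOXF1 was present there in both Sen libraries and in no Pro library. The other 15 regions had ratios of 0.701 to 1.9. At the FOSB region chr19:45958973-45959755, with the highest fold of that window in all 6 lists, the summit held 74 and 60 fragments in Sen-siFOXF1/2, 75 and 94 in Sen, and 79 and 89 in Pro. Its neighbour chr19:45970683-45971267 had 72 and 48 in Sen-siFOXF1/2, 64 and 51 in Sen, and 82 and 82 in Pro, the lowest ratio of the 16. The median ratio of Sen to Pro was 1.19 over the 16 regions, beside 1.5 over the genome. The median ratio of Sen-siFOXF1/2 to Sen was 0.851, beside 1.08.

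After siFOXF1/2 the windows still held p-c-JUN peaks, in numbers that lay close to those in Sen. Sen-siFOXF1/2 replicates 1 and 2 held 6 and 8 peaks at FOS, against 6 and 10 in Sen. At FOSB they held 9 and 11, against 11 and 13 in Sen, and at FOSL1 7 and 5, against 5 and 7 in Sen. At FOSL2 they held 8 and 11, against 10 and 14 in Sen, and at ATF3 15 and 17, against 13 and 20 in Sen. The conditions overlapped or met in all 5 windows. Over the windows, 45 and 52 peaks in Sen-siFOXF1/2 against 45 and 64 in Sen gave a log2 difference of −0.15 ± 0.270 (SE, n = 2 and 2; p = 1.00 by exact two-sided permutation). Without Sen replicate 2 the difference was 0.10.

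Single regions did change hands. Of 78 regions 3 were gained after siFOXF1/2 and 3 lost, 3.85% each, beside 4.47% and 4.03% over the genome. One of the lost regions is under the strongest FOXF1 element of the windows. At FOSL2, chr2:28523600-28524150 had p-c-JUN folds of 5.02 and 5.69 in Sen and 5.14 and 4.79 in Pro, and no peak in either Sen-siFOXF1/2 library. H3K27ac was present over this element in all of these conditions, with 4.95 and 4.29 in Sen-siFOXF1/2, 5.4 and 5.51 in Sen replicates 1 and 2, and 6.46 and 4.93 in Pro. The other lost regions, chr19:45972242-45972576 (4.22 and 5.44 in Sen) and chr19:45942930-45943300 (3.94 and 3.73 in Sen), were at FOSB and had been gained in Sen, a comparison that uses the same Sen libraries. Gained were chr14:75709419-75709760 at FOS (4.55 and 7.05 in Sen-siFOXF1/2), chr11:65716606-65716877 at FOSL1 (8.08 and 6.84) and chr2:28585240-28585628 at FOSL2 (3.62 and 4.52). At the remaining 9 of the 10 FOXF1 elements, p-c-JUN was present in both Sen-siFOXF1/2 libraries although FOXF1 was called in neither. Over the series, 62.4% of the FOXF1 regions shared by the Sen libraries held p-c-JUN in both Sen-siFOXF1/2 libraries. Leaving out any 1 of the 4 libraries gave 5 to 7 gained and 5 to 18 lost regions. The 18 came without Sen replicate 1, beside 19.5% lost over the genome. The 7 came without Sen-siFOXF1/2 replicate 1, beside 14.7% gained.

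H3K27ac peaks were fewer in Sen than in Pro, and the groups overlapped once numbers were taken relative to list length. Sen replicates 1 and 2 held 50 and 41 peaks in the windows, against 61 and 57 in Pro (log2 difference −0.37 ± 0.148, SE, n = 2 and 2; p = 0.33 by exact two-sided permutation). With lists of equal length the difference was −0.08 (p = 1.00 by exact two-sided permutation), and per 10000 peaks of their lists the windows held 5.89 and 6.74 peaks in Sen, against 7.24 and 6.38 in Pro, which overlap. The gap in number was widest at FOSL2, with 8 and 8 peaks in Sen, against 15 and 14 in Pro. At ATF3 there were 7 and 6 in Sen, against 9 and 9 in Pro, and at FOSL1 9 and 10 in Sen, against 14 and 13 in Pro. FOS (10 and 6 in Sen, 9 and 10 in Pro) and FOSB (16 and 11 in Sen, 14 and 11 in Pro) overlapped between conditions. Sen replicates 3 and 4, of the second deposit, held 55 and 27 peaks in the windows. Per 10000 peaks of their lists these were 11.3 and 10.1, above both Pro values. They held 14 and 7 at FOSL1 and 10 and 5 at ATF3, so these windows also overlapped with Pro. At FOSL2 they held 8 and 1. Sen replicates 1 and 2 and Pro gave 74 regions. Of these 4 were gained, 5.41% beside 4.51% over the genome, and 9 were lost, 12.2% beside 9.56%. With all 4 Sen libraries required, 1 region was gained, beside 0.473%.

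That one region was at FOS, chr14:75723792-75724587. It held H3K27ac in all 4 Sen libraries (3.79, 3.69, 6.32 and 4.37), in both Sen-siFOXF1/2 libraries (4.78 and 3.66), in neither Pro library and in neither Sen-cJUN/JUND-KD library. The Sen control libraries of Sen-sip300/CBP, with short lists of 8234 and 2046 peaks, held no peak there. The gained p-c-JUN region of the FOS window lies within this H3K27ac region, and p-c-JUN was present there in Sen-siFOXF1/2 replicate 2 (7.34) and not in replicate 1. The other gains were chr19:45952227-45952562 (3.1 and 3.45 in Sen) and chr19:46017901-46018345 (2.97 and 4.67) at FOSB, and chr1:212808271-212809010 (3.83 and 3.89) at ATF3. The first of the FOSB regions covers the strongest gained p-c-JUN region of the FOSB window and also held H3K27ac in both Sen-siFOXF1/2 libraries (5.06 and 4.17). Lost in Sen was 1 region at FOS, chr14:75740071-75740466 (3.75 and 3.03 in Pro). At FOSL1 there were 3, namely chr11:65680241-65680758 (2.22 and 2.41), chr11:65656179-65656878 (2.62 and 2.56) and chr11:65695359-65695720 (3.38 and 4.57). With peaks joined over all H3K27ac lists, the second of these was part of chr11:65655414-65656878, where Sen replicate 1 held a peak (2.43). That joining gave 8 lost regions in the windows. FOSL2 lost chr2:28578532-28579739 (4.93 and 5.43), chr2:28631369-28632013 (3.89 and 4.11) and chr2:28612585-28613048 (2.61 and 2.35), and ATF3 lost chr1:212739966-212741034 (5.61 and 5.11) and chr1:212822038-212822867 (4.27 and 4.62). Without Sen replicate 1, 8 regions were gained and 19 lost, beside 12.3% and 22.8% over the genome. Without Sen replicate 2 there were 7 gains, beside 17.5%. Without Pro replicate 1 or 2 there were 16 losses, beside 23.5% and 21.7%.

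**Figure D4:**
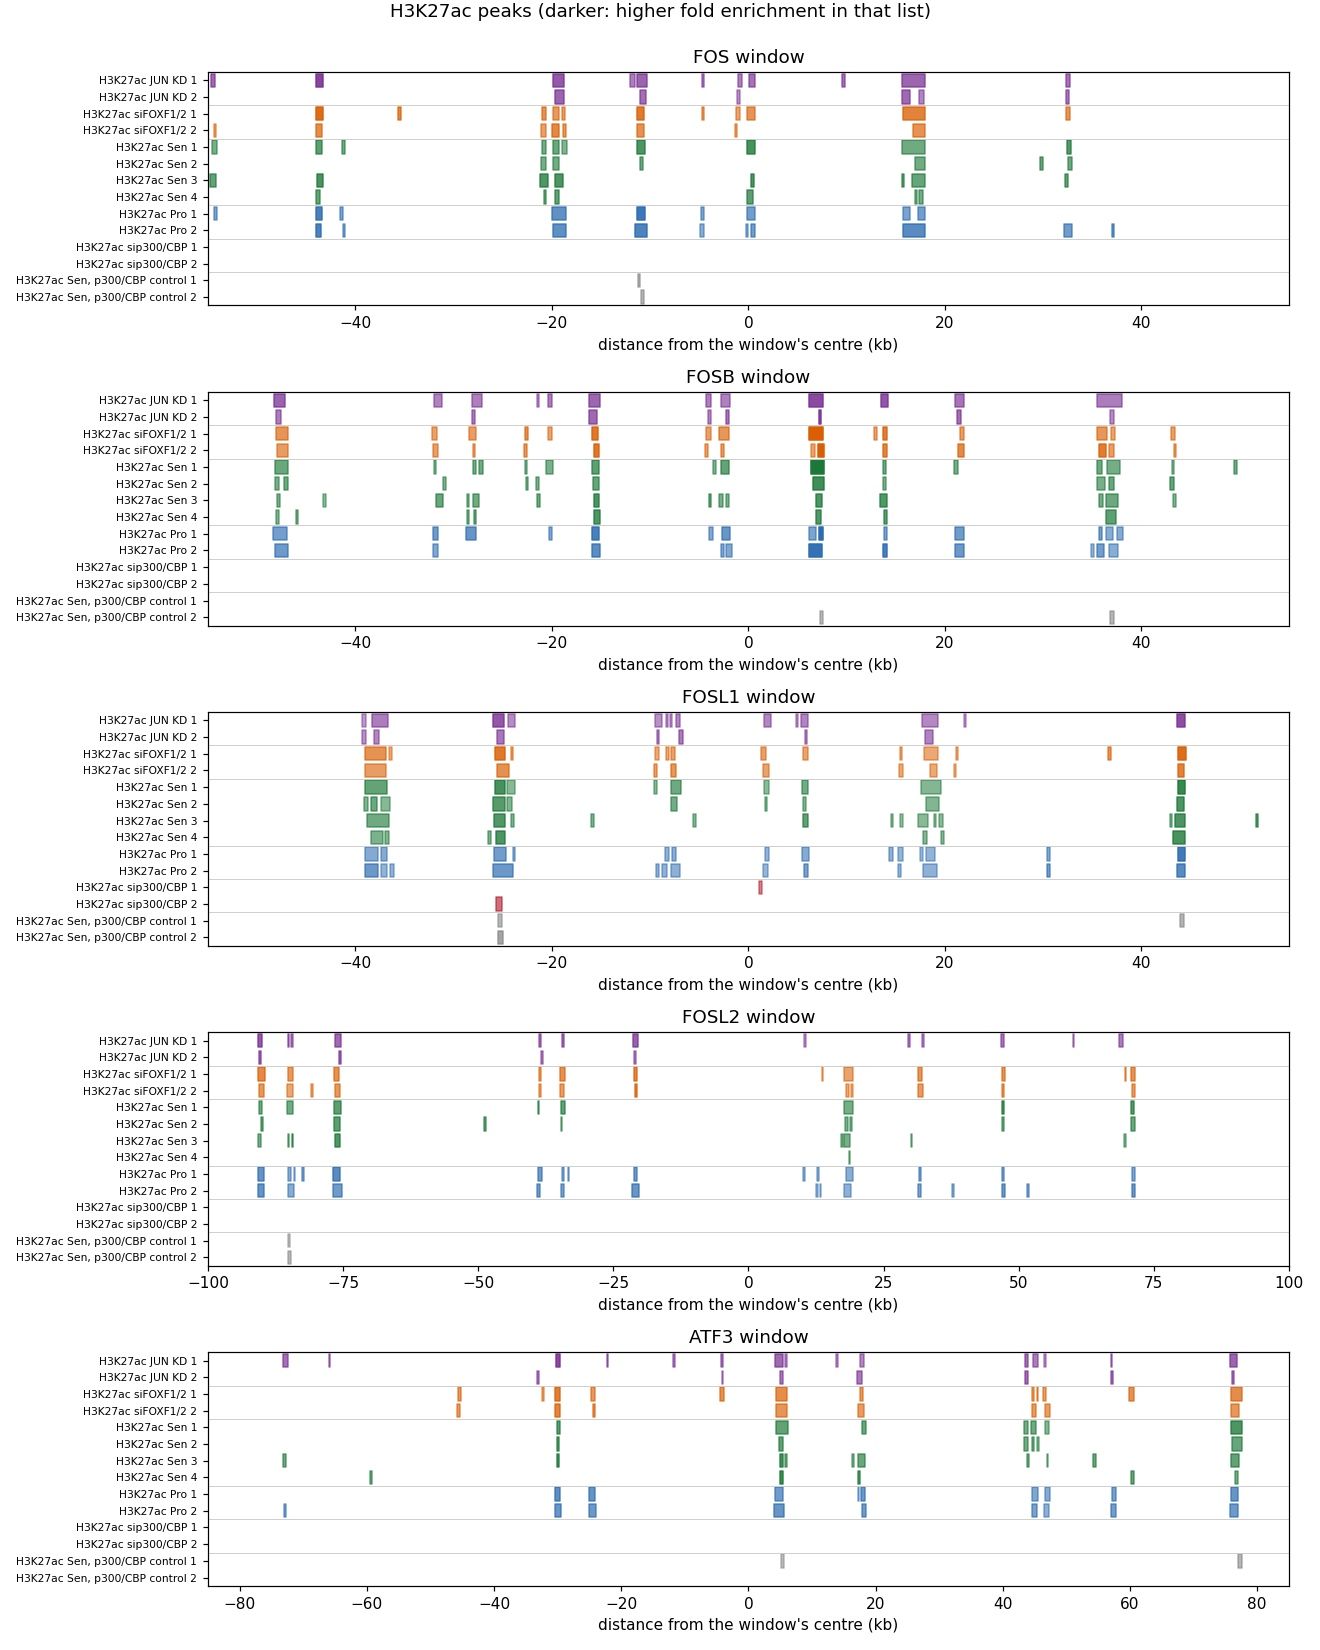
H3K27ac peaks of each library along the 5 windows, drawn as in the map of FOXF1 and p-c-JUN peaks; rows are libraries, with JUN KD for Sen-cJUN/JUND-KD, and the x axis is the distance from the window's centre in kb. Just left of the broad block in the left part of the FOS window, a narrow block is present in the Sen and siFOXF1/2 rows and absent from the JUN KD and Pro rows; the sip300/CBP rows and their control are nearly empty.

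After siFOXF1/2 the H3K27ac peaks numbered 64 and 51 in Sen-siFOXF1/2, against 50 and 41 in Sen replicates 1 and 2 (log2 difference 0.33 ± 0.213, SE, n = 2 and 2, p = 0.33 by exact two-sided permutation). Sen replicates 3 and 4 held 55 and 27, so the conditions overlapped over all 4 Sen libraries. Per window there were 11 and 8 in Sen-siFOXF1/2 at FOS, 15 and 14 at FOSB, 14 and 9 at FOSL1, 12 and 12 at FOSL2, and 12 and 8 at ATF3. Of 72 regions 8 were gained, 11.1% beside 5.51% over the genome, and 1 was lost, 1.39% beside 4.26%. The lost one was chr1:212808271-212809010 at ATF3, which had been gained in Sen. The gains were 1 each at FOS, chr14:75743607-75744188 (3.30 and 3.45 in Sen-siFOXF1/2), and FOSB, chr19:45970535-45971184 (3.60 and 3.56), and 2 each in the other windows. One of the FOSL1 gains, chr11:65685912-65686312 (2.50 and 2.25), and one at ATF3, chr1:212719214-212719751 (4.16 and 4.01), had no H3K27ac peak in any other library. With all 4 Sen libraries required absent or present, 6 regions were gained and 0 lost, beside 4.45% and 0.235% over the genome. With peaks of −log10 q of 5 or more 3 regions were gained and 0 lost, beside 5.99% and 3.42%. There were 19 gained and 5 lost without Sen replicate 1, beside 16.1% and 12.3% over the genome. Without Sen-siFOXF1/2 replicate 2 there were 19 gained, beside 20.4%. Without its replicate 1 there were 3 lost, beside 8.92%, and without Sen replicate 2 there were 5 lost, beside 19.4%.

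At 3 places H3K27ac was present in both Sen-siFOXF1/2 and both Pro libraries and in none of the 4 Sen libraries. These were 3.19% of 94 regions joined over the 8 libraries in the windows, beside 1.09% over the genome, and with 3 regions this is a description without a test. Both comparisons use the same Sen libraries 1 and 2, so these are not separate observations. At ATF3, chr1:212739966-212741034 had 4.21 and 4.96 in Sen-siFOXF1/2, against 5.61 and 5.11 in Pro. It spans an element with FOXF1 in both Sen libraries and p-c-JUN in all 6 lists (8.43 and 8.15 in Sen-siFOXF1/2, 10.21 and 8.19 in Sen, 8.78 and 7.58 in Pro). At FOSL2, chr2:28578532-28579739 had 5.88 and 6.01 in Sen-siFOXF1/2, against 4.93 and 5.43 in Pro, and also 6.34 and 3.61 in Sen-cJUN/JUND-KD. The other FOSL2 region, chr2:28631366-28632415, had 4.48 and 3.96 in Sen-siFOXF1/2, against 3.89 and 4.11 in Pro, and also 3.45 in Sen-cJUN/JUND-KD replicate 1. Sen replicate 4 held only 1 H3K27ac peak in the FOSL2 window, so its lack of a peak at both FOSL2 regions carries little weight. A weak region at FOSL1, chr11:65680241-65680758, was absent from Sen replicates 1 and 2 but present in replicate 3 (1.95), with 2.85 and 2.81 in Sen-siFOXF1/2, against 2.22 and 2.41 in Pro.

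The JUN knockdown was set against Sen replicates 3 and 4, of its own deposit. Sen-cJUN/JUND-KD held 65 and 32 H3K27ac peaks, against 55 and 27 in Sen (log2 difference 0.24 ± 0.707, SE, n = 2 and 2; p = 0.667 by exact two-sided permutation), and the 2 conditions overlapped. Of 88 regions 10 were gained, 11.4% beside 7.66% over the genome, and 4 were lost, 4.55% beside 2.74%. Lost were the FOS region named above at chr14:75723792-75724587 (6.32 and 4.37 in Sen), chr19:45946331-45946552 at FOSB (3.25 and 3.55), chr11:65684397-65684867 at FOSL1 (2.38 and 2.67) and chr2:28617761-28618844 at FOSL2 (3.64 and 3.22). The FOSL2 region also held H3K27ac in Pro, in Sen replicates 1 and 2 and in Sen-siFOXF1/2. With peaks joined over all H3K27ac lists, the lost FOSB and FOSL1 regions fell within wider regions where both Sen-cJUN/JUND-KD libraries held peaks. These were chr19:45946267-45947946 (4.06 and 4.16 in Sen-cJUN/JUND-KD) and chr11:65682225-65684867 (3.37 and 3.74). With that joining, 9 regions were gained and 2 lost. The gain with the best rank was at the second FOS element, chr14:75733621-75734658 (6.06 and 5.25 in Sen-cJUN/JUND-KD), but Sen replicates 1 and 2 of the first deposit also held H3K27ac there (6.47 and 4.23). Other gains at FOS and FOSB were chr14:75743840-75744358 (3.92 and 2.75) and chr19:45995995-45996938 (4.82 and 5.22). FOSL1 gained chr11:65657626-65658295 (3.51 and 4.27), chr11:65655498-65656186 (2.87 and 3.55) and chr11:65625685-65626109 (2.15 and 2.80). FOSL2 gained chr2:28561261-28561910 (4.64 and 3.64) and chr2:28578563-28579561 (6.34 and 3.61), and ATF3 gained chr1:212821961-212822366 (4.46 and 4.97) and chr1:212760735-212761057 (4.45 and 3.31). Some lay in wider regions, joined over all H3K27ac lists, that Sen libraries held. For the first FOSL1 gain, Sen replicates 1 and 2 had 4.20 and 3.86 there. Sen replicate 1 held a peak for the second FOSL1 gain (2.43), the FOSB gain (3.71) and the first FOSL2 gain (4.61). The third FOSL1 gain was part of chr11:65625685-65628964, where Sen replicates 3 and 4 held peaks (4.15 and 3.41). No Sen library held a peak at the other FOS gain, the second FOSL2 gain or the ATF3 gains. With all 4 Sen libraries required absent or present, 4 regions were gained and 2 lost. With peaks of −log10 q of 5 or more there were 5 gained and 1 lost, and with lists of equal length 2 gained and 2 lost with a log2 peak difference of −0.07. Without Sen-cJUN/JUND-KD replicate 2 the gains numbered 32, and without Sen replicate 3 they numbered 17. The losses numbered 8 without Sen-cJUN/JUND-KD replicate 1, 8 without Sen replicate 3 and 18 without Sen replicate 4.

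For p300 and CBP, the knockdown and its Sen control both held few peaks to compare. Their lists held 4186 and 1549 peaks in Sen-sip300/CBP, against 8234 and 2046 in the control. Per 10000 peaks the windows held 2.39 and 6.46, against 7.29 and 24.4, and the part of list length was not tested. Sen-sip300/CBP held 1 and 1 H3K27ac peaks in the windows, both at FOSL1, against 6 and 5 in its Sen control (log2 difference −1.70 ± 0.111, SE, n = 2 and 2; p = 0.33 by exact two-sided permutation). Of 10 regions 0 were gained, beside 2.02% over the genome, and 1 was lost, beside 2.69%. The lost region was chr2:28514874-28515376 at FOSL2, with 2.91 and 3.52 in the control. It lies over the first FOSL2 element, where FOXF1 was gained in Sen. With peaks of −log10 q of 5 or more, or with lists of equal length, 0 regions were lost and the log2 peak difference was −1.0. The losses numbered 2 without Sen-sip300/CBP replicate 2, with 1 gain, 4 without control replicate 1 and 5 without control replicate 2.

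**Figure D5:**
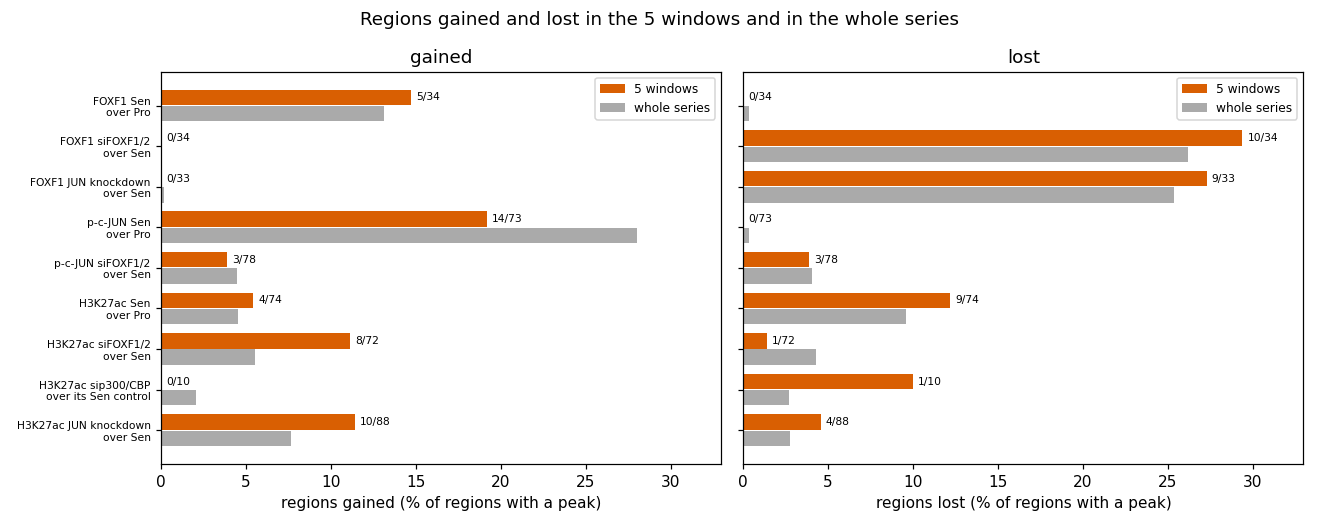
Share of regions gained (left) and lost (right) in the 5 windows and in the whole series for each of 9 comparisons; the x axis is the percentage of regions with a peak in any of the 4 libraries, and the labels give the regions called over the regions in the windows. The p-c-JUN gains in Sen are 19.2% in the windows beside 28.0%, and H3K27ac gains after siFOXF1/2 are 11.1% beside 5.51%.

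For each antibody and window, the most widely held region is given here where it was not named above; among regions held by equally many libraries it is the one whose weakest rank was best. For FOXF1 at FOSL1, 3 regions were held by 2 libraries, among them the gained element, and the one chosen was chr11:65625827-65626121, in Sen replicate 2 and Pro replicate 2. For p-c-JUN these were chr14:75725499-75726446 at FOS, which spans the gained FOXF1 element (folds 4.89 to 6.28), chr11:65683038-65683779 at FOSL1 (7.87 to 10.7) and chr2:28615197-28616183 at FOSL2 (5.87 to 8.05), where FOSL1 had 2 regions in all 6 lists. H3K27ac was most widely held at FOSL1, at chr11:65638981-65641235, in 13 of 14 lists. At FOSB, chr19:46010428-46013153 was in 11 lists, as was chr1:212840773-212842628 at ATF3, while chr14:75724969-75726517 at FOS was in 10 and chr2:28523201-28524787 at FOSL2, over the strongest FOXF1 element, in 9. As many lists held 1 further region at FOSB, 1 at ATF3, 2 at FOS and 2 at FOSL2. The FOSB region chr19:45981124-45982693 ranked high in some H3K27ac lists and lower in others. It stood at rank 3057 and 255 in Sen-cJUN/JUND-KD (fold 8.01 and 7.98), 10 and 9 in Sen-siFOXF1/2 (12.09 and 12.60), 53, 408, 4311 and 2029 in Sen replicates 1 to 4 (10.07, 7.33, 6.46 and 6.23) and 36 and 334 in Pro (11.46 and 9.10).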

How the data were processed

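CUT&RUN with antibodies to FOXF1, p-c-JUN and H3K27ac gave 28 deposited peak lists, 1 per library and none pooled, in 13 groups taken from sample titles. Per the submitters' processing notes, reads were processed on build hg19 with tools that include MACS2 3.0.0, deepTools 3.1.1, Bowtie2 2.3.4.1 and SAMtools 1.9; their settings and any control library are not given in the sources used here. The deposited fold enrichment (a ratio) and the −log10 p and −log10 q values are those the authors' peak caller wrote at each summit. Per the labels' protocols, 5 ng of yeast DNA was spiked in and reads were 35 bp paired-end. Use of the spike-in for scaling is not stated there.

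A further 475 peaks outside chromosomes 1 to 22 and X were left out. Regions, gains and losses were computed over the whole genome for 9 comparisons and those in the windows reported. Peak numbers were compared as log2(peaks + 1) by an exact two-sided permutation test over libraries. Named were all gained or lost regions of a window where 3 or fewer, otherwise the 3 whose weaker rank by −log10 q was best, the region held by most libraries, and every FOXF1 region of both Sen libraries. Other regions named were chosen after their values were seen. Whole summit pileups were solved from fold and −log10 p; all 830 window peaks gave a whole number within 0.001 and 99.8% gave a single one. The comparison of these pileups was added after the data had been seen. No hg19 genome or annotation was used here, so gene starts were not placed on hg19 and other AP-1 genes were not analysed here. Alternatives were a −log10 q of 5 or more, lists of equal length, an overlap of 50% of the shorter peak, each library left out, a replicate block and all 4 Sen libraries. The windows, members and lists were chosen with earlier results of these data known. The region calls were tested on simulated lists. Python 3.11.15, numpy 2.4.6, pandas 2.3.3, scipy 1.17.1 and matplotlib 3.10.9 were used.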

Additional observations from a re-analysis of the deposited data

Results flagged for a closer look

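H3K27ac in Sen cells numbered 1 peak in the FOSL2 window in replicate 4, while replicates 1, 2 and 3 held 8 each, so that replicate 4 stood apart from the other 3 by the whole range of the group. Its list, of 26694 peaks, was the shortest of the 4 Sen lists of that kind, and its part in the result was not tested. Among 6 such counts looked at (each window and their sum), this was the only one to stand apart by Dixon's criterion at the 95% level, and chance does so in about 1 of 20 groups.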

How the results depend on the processing

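At −log10 q of 5 or more, FOXF1 gained 0 regions in Sen and lost 1 after siFOXF1/2 and 1 after JUN knockdown; H3K27ac gained 2 and lost 5 in Sen, gained 3 and lost 0 after siFOXF1/2, lost 0 after sip300/CBP, and gained 5 and lost 1 after JUN knockdown. With lists of equal length, FOXF1 gained 0 and lost 2 in Sen with a log2 peak difference of −0.95, and lost 0 after either knockdown; p-c-JUN gained 3 and lost 2 in Sen with a difference of −0.24; H3K27ac gained 2 and lost 5 in Sen, lost 0 after sip300/CBP, and gained 2 and lost 2 after JUN knockdown with a difference of −0.07. The shortest FOXF1 knockdown lists leave few peaks at equal length. With all 4 Sen libraries, H3K27ac gained 1 in Sen, lost 0 after siFOXF1/2, and gained 4 and lost 2 after JUN knockdown. With peaks joined over all H3K27ac lists, H3K27ac lost 8 in Sen and 2 after sip300/CBP, and gained 9 and lost 2 after JUN knockdown. Apart from the named changes, the cause was not tested. An overlap of 50% of the shorter peak kept every count over the 5 windows within 1.5 times, but 9 of 90 counts in single windows moved further, each by 1 region; FOXF1 gained 0 at FOSL2 in Sen and H3K27ac gained 0 at FOS after siFOXF1/2.

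Leaving out 1 library at a time gave these ranges. For FOXF1, gains in Sen were 5 to 22, with peak differences of 0.91 to 2.79, losses after siFOXF1/2 10 to 32 (−5.04 to −3.70) and losses after JUN knockdown 9 to 31 (−4.37 to −2.79). For p-c-JUN, gains in Sen were 16 to 38 and losses 0 to 3, the 3 without Pro replicate 2 (0.83 to 1.33), and after siFOXF1/2 gains were 5 to 7 and losses 5 to 18 (−0.40 to 0.10). For H3K27ac, gains in Sen were 4 to 8 and losses 9 to 19 (−0.51 to −0.23), gains after siFOXF1/2 8 to 19 and losses 1 to 5 (0.17 to 0.49), gains after sip300/CBP 0 to 1 and losses 1 to 5 (−1.81 to −1.58), and gains after JUN knockdown 10 to 32 and losses 4 to 18 (−0.26 to 0.74); the −0.26 came without knockdown replicate 1 and without Sen replicate 4. Leaving out a library in itself loosens the rule for both gains and losses. Without Pro replicate 1, H3K27ac gains in Sen over the genome went from 4.51% to 6.65% and losses from 9.56% to 23.5%.

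Same-numbered libraries have no stated pairing. With the replicate block the differences were 1.85, −4.37 and −3.58 for FOXF1, 1.08 and −0.15 for p-c-JUN, and −0.37, 0.33 and −1.70 for H3K27ac, with 0.50 the smallest possible p. No paired analysis was possible for H3K27ac after JUN knockdown because its libraries and Sen replicates 3 and 4 share no number.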

Other observations

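The distance between FOXF1 and p-c-JUN summits was taken in Sen cells from FOXF1 peaks that overlapped a p-c-JUN peak, so short distances are set by that choice. In the windows, the median distance was 87.0 bp and 145 bp for FOXF1 replicate 1 against p-c-JUN replicates 1 and 2 (11 and 10 peaks), and 130 bp and 94.0 bp for FOXF1 replicate 2 (23 and 25 peaks). Over the series the medians, for the same pairs of libraries, were 79.0, 87.0, 85.0 and 93.0 bp. In the windows the distance ran from 1 to 548 bp.

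In the RefSeq order on GRCh38.p14 several neighbours of these genes are AP-1 relatives themselves. Which neighbours fall within the hg19 windows was not determined. FOS is followed by JDP2 and BATF, and ATF3 by GARIN4 and BATF3. JDP2, BATF and BATF3 encode further proteins that pair with JUN. FOSB lies between ERCC1 and RTN2, FOSL1 between CCDC85B and C11orf68, and FOSL2 between BABAM2 and PLB1. Which gene a peak acts on was not measured.

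The FOS region chr14:75745210-75745562 held p-c-JUN in Sen-siFOXF1/2 replicate 2 (6.21) but not in replicate 1, in both Sen libraries (8.79 and 5.94) and in both Pro libraries (10.42 and 9.81). FOXF1 was called there in Sen replicate 2 (4.12) and Pro replicate 2 (5.39).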
